A study of Mus musculus with 16 samples.

Results

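Pyroptosis and necroptosis are forms of programmed cell death in which the plasma membrane is broken and cell contents escape. In pyroptosis, a sensor such as NLRP3 or AIM2 recruits the adaptor ASC (encoded by *Pycard*) into an inflammasome, which activates caspase-1. Caspase-1, or caspase-11 (encoded by *Casp4* in the mouse), then cuts gasdermin D, whose free end forms pores. In necroptosis, RIPK3 is activated through RIPK1 or through the nucleic acid sensor ZBP1, and it phosphorylates MLKL, which moves to the membrane. Macrophages are a main site of inflammasome activity, and both routes are of interest in inflamed muscle because a bulk sample holds infiltrating cells as well as fibres. The 10 genes examined here were *Nlrp3*, *Aim2*, *Pycard*, *Casp1*, *Casp4*, *Gsdmd*, *Zbp1*, *Ripk1*, *Ripk3* and *Mlkl*, taken by symbol from the 26382 genes of the mouse table. All 10 had a row, and all 10 were among the 16414 genes that passed the filter on low values (a mean of at least 0.5 over 16 libraries). The lowest group mean of any of them was 0.672, that of *Nlrp3* in contralateral PBS legs, so that none passed only through the legs in which it was high.

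RNA came from hamstring muscle of female C57BL/6 mice, injected at 8 to 10 weeks of age and killed at day 14. Recombinant histidyl-tRNA synthetase (HRS, also called Jo-1), an autoantigen of anti-synthetase myositis, was the immunogen at 3 to 5 mg/mL. The HRS leg group held the left hamstrings of 5 mice (m862 to m866), and the contralateral PBS leg group held the right hamstrings of the same mice. The PBS-only group held 4 legs of 2 mice (m867 and m868) that received phosphate-buffered saline alone. The HRS-MBP group held 1 library each of 2 mice (m860 and m861), whose titles name a fusion with MBP at 2 to 3 mg/mL while their treatment label reads HRS, and no leg is given. The protocol text describes bilateral injection, in contrast to the titles of m862 to m866, and the titles were followed.

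The deposited values are normalized counts, from which a depth equivalent to 8600000 to 73900000 reads per library was read off, lowest in the legs of PBS-only mouse m868. The HRS leg of mouse m866 stood apart on the first principal component (77.3% of the variance), at 2.84, where the other HRS and HRS-MBP libraries lay at -65.4 or below and all PBS libraries at 37.9 or above. Mitochondrial genes took 11.1% of its total, within the 9.69% to 13.1% of the PBS libraries, while they took 3.41% to 6.29% in the other HRS legs and 5.94% to 6.98% in HRS-MBP. Apart from m866 the share was thus lower in HRS and HRS-MBP libraries than in PBS libraries, and its part in the results was not tested. Muscle fibre markers were abundant in all 16 libraries, with summed values of at least 48610. In bulk tissue, a lower number of cells of a type and less RNA per cell cannot be told apart. No source says which library was run on which of the sequencing platforms, so platform and group cannot be told apart either.

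The first question was whether the machinery of both death routes was more abundant in an HRS leg than in the PBS leg of the same mice. All 10 genes were called higher in HRS legs (limma, Benjamini-Hochberg adjusted p under 0.05 over all tested genes and an absolute log2 fold change above 1). Of all tested genes, 16.9% were called higher in this comparison. The median log2 fold change of the 10 genes was 2.74, against 0.08 over all tested genes, and it ran from 1.61 in *Ripk1* to 3.51 in *Nlrp3*. The 5 HRS legs lay above the 5 contralateral legs without overlap for all 10 genes, as they did for 18.3% of tested genes. Fold changes here are differences of log2(normalized count + 0.5), a scale on which low genes appear to change less than they did. The largest adjusted p among the 10 was 4.97e-05.

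Of the sensors, *Nlrp3*, which responds to potassium loss and other signs of cell damage, had normalized counts of 11.8, 10.97, 39.0, 9.90 and 6.26 in the HRS legs of m862, m863, m864, m865 and m866. Their contralateral legs had 0.609, 0.527, 0.924, 0.382 and 0.916. Every HRS leg exceeded every PBS leg, and the leg of m864 was far above the other HRS legs. The log2 fold change was 3.51 ± 0.40 (SE), the largest of the 10 genes (limma adjusted p = 9.33e-06). In the PBS-only mice, *Nlrp3* was at 0.313 and 0.202 in m867 and at 1.70 and 1.11 in m868, and in the HRS-MBP libraries it was at 30.0 and 32.3.

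*Aim2*, the sensor of double-stranded DNA in the cytosol, was the least abundant of the 10 genes per kilobase of exon in HRS legs. Its normalized counts were 6.63, 7.42, 17.7, 7.03 and 2.62 in HRS legs and 0.481, 0.989, 0.878, 0.559 and 0.646 in contralateral legs, mice in the same order. The leg of m866 was the lowest HRS leg and still lay above all PBS legs. The difference was 2.65 ± 0.33 on the log2 scale (limma adjusted p = 1.83e-05). PBS-only legs lay between 0.526 and 1.04, and the HRS-MBP libraries held 11.9 and 15.0. The gene spans 1:173350879-173466040 on the plus strand and overlaps *Cadm3* on the other strand. Because no source says whether counting used the strand, reads of the pair may be mixed.

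*Pycard* encodes ASC, the adaptor that links sensors to caspase-1. HRS legs held 17.8, 18.9, 36.6, 16.6 and 8.99, and contralateral legs held 1.09, 1.97, 2.54, 1.79 and 2.53. A wide gap separated the groups, from 2.54 in the highest contralateral leg to 8.99 in the lowest HRS leg. *Pycard* differed by 2.93 ± 0.28 (limma adjusted p = 2.38e-06). *Pycard* (7:127989708-127993867, minus strand) overlaps *Gm45205* on the other strand, so that its reads may be mixed as well. In PBS-only legs *Pycard* lay between 1.22 and 1.88, and in HRS-MBP libraries it was at 29.0 and 25.8.

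*Casp1*, the inflammatory caspase that also matures IL-1β and IL-18, was at 19.3, 21.9, 51.6, 17.1 and 11.3 in HRS legs and at 1.79, 2.49, 2.54, 1.97 and 2.64 in contralateral legs. The contralateral legs were close to each other, while HRS legs spread over a range of which m864 was the top. On the log2 scale *Casp1* differed by 2.97 ± 0.35 (limma adjusted p = 1.14e-05). PBS-only legs held between 0.526 and 3.03, and HRS-MBP libraries 41.3 and 50.1. *Casp4*, whose protein senses bacterial lipopolysaccharide in the cytosol, lies next to *Casp1* on chromosome 9. It was at 12.99, 13.3, 26.6, 11.04 and 10.4 in HRS legs and at 1.19, 1.80, 2.91, 2.0 and 2.32 in contralateral legs. For *Casp4* the legs of m865 and m866 were nearly equal, and the single high leg was again that of m864. Its log2 fold change was 2.55 ± 0.24 (limma adjusted p = 2.33e-06). PBS-only legs held between 1.21 and 1.83 of *Casp4*, and HRS-MBP libraries 19.2 and 28.2.

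*Gsdmd*, the pore-forming executor of pyroptosis, had 33.9, 35.4, 80.8, 28.8 and 17.98 in HRS legs against 3.97, 4.24, 5.45, 5.12 and 6.06 in contralateral legs. It was well detected in every library, with the equivalent of 33 reads in the shallowest one. The log2 fold change was 2.703 ± 0.28 (limma adjusted p = 4.99e-06). PBS-only legs lay between 3.40 and 6.00, and the HRS-MBP libraries were at 58.3 and 73.6.

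On the necroptosis side, *Zbp1*, the sensor of Z-form nucleic acids and an interferon-induced gene, was at 44.1, 33.3, 96.2, 32.4 and 31.4 in HRS legs and at 4.04, 2.97, 4.85, 3.73 and 2.85 in contralateral legs. The leg of m866 was the lowest but close to those of m863 and m865. *Zbp1* differed by 3.39 ± 0.39 (limma adjusted p = 1.10e-05). In PBS-only mice the 2 animals differed, with 1.08 and 0.728 in m867 and 4.61 and 4.76 in m868. HRS-MBP libraries held 86.0 and 87.3.

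*Ripk1*, the kinase and scaffold below TNF receptor 1, was at 21.8, 29.3, 41.2, 24.3 and 14.8 in HRS legs and at 6.398, 7.41, 7.56, 7.09 and 11.4 in contralateral legs. The groups did not overlap, but the HRS leg and the PBS leg of m866 were close. The log2 fold change was 1.61 ± 0.22, the smallest of the 10 (limma adjusted p = 4.97e-05). PBS-only legs lay between 6.04 and 9.62, and HRS-MBP libraries at 34.9 and 39.1. *Ripk1* (13:34002363-34037147, plus strand) overlaps 3 other genes of the table, *Gm17083*, *Gm17084* and *Serpinb6a*, 1 of them on its own strand, so its counts are less certain.

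*Ripk3*, the kinase that activates MLKL, was at 10.2, 12.6, 20.8, 13.1 and 4.58 in HRS legs and at 0.545, 0.725, 1.48, 1.18 and 2.67 in contralateral legs. The PBS leg of m866 was the highest of the PBS legs and its HRS leg the lowest of the HRS legs. *Ripk3* differed by 2.78 ± 0.36 (limma adjusted p = 2.64e-05). PBS-only legs held between 0.568 and 1.76, and HRS-MBP libraries 16.9 and 18.8. *Mlkl*, the executor that permeabilizes the membrane in necroptosis, showed the same order in m866. Its HRS legs were at 10.7, 10.8, 20.6, 9.81 and 6.95 and its contralateral legs at 0.993, 1.252, 2.17, 1.38 and 3.66. The log2 fold change was 2.37 ± 0.28 (limma adjusted p = 1.51e-05). PBS-only legs of *Mlkl* lay between 1.04 and 1.82, and HRS-MBP libraries at 15.7 and 15.4.

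**Figure D1:**
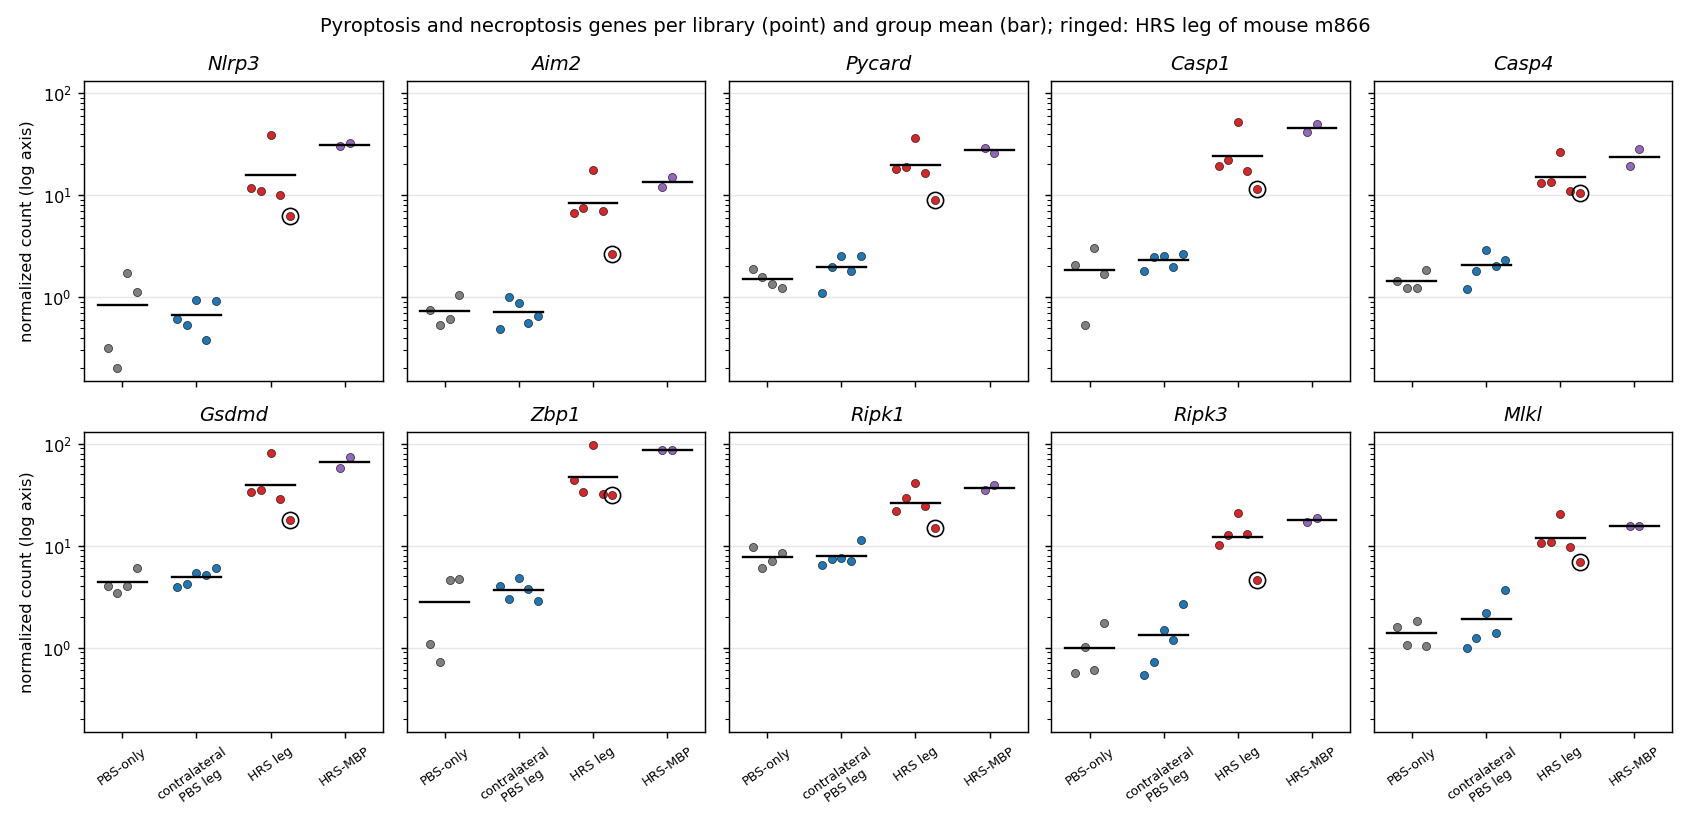
Normalized count (log axis) of each of the 10 genes in every library (point) of the PBS-only, contralateral PBS leg, HRS leg and HRS-MBP groups, with the group mean as a bar and the HRS leg of m866 ringed. All HRS and HRS-MBP points lie above all PBS points in all 10 panels, from 2.62 upwards for *Aim2* and from 14.8 upwards for *Ripk1*.

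Levels of different genes were set beside each other per kilobase of exon (GENCODE M21 exon lengths). In HRS legs *Gsdmd* (16.6 ± 10.2, SD, n = 5), *Casp1* (16.2 ± 10.53) and *Zbp1* (13.5 ± 7.85) came first, and these 3 did not differ beyond their spread. *Ripk3* (5.34 ± 2.55), *Pycard* (5.204 ± 2.68), *Mlkl* (5.11 ± 2.24), *Casp4* (4.01 ± 1.80), *Nlrp3* (3.84 ± 3.27), *Ripk1* (3.15 ± 1.18) and *Aim2* (2.36 ± 1.60) followed, each within the spread of its neighbours. In contralateral PBS legs *Gsdmd* (2.09 ± 0.362), *Casp1* (1.53 ± 0.252) and *Zbp1* (1.05 ± 0.232) again led, but *Ripk1* came next (0.955 ± 0.235), while *Aim2* (0.203 ± 0.0615) and *Nlrp3* (0.166 ± 0.0593) were last. Thus *Nlrp3*, the lowest of the 10 in PBS legs, had the largest log2 fold change in this comparison, and *Ripk1*, next after the leading 3 in PBS legs, the smallest. First place turned on the scale, since with a pseudocount of 2 *Zbp1* (2.99) lay above *Nlrp3* (2.48), and without the HRS leg of m864 they were at 3.10 and 3.11. The exon length of *Casp1* was taken from an annotation whose ends (5298517 to 5307265 on chromosome 9) differ from those of the table (5298508 to 5307290).

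Because the genes moved together, the 250 bases upstream of their RefSeq start sites (GRCm38.p6) were compared. The promoter table matched 8 of the 10 genes, with 11 windows, and *Gsdmd* and *Zbp1* had no entry. Below are 4 windows free of annotated exons, for the genes with the largest (*Nlrp3*) and the smallest (*Ripk1*) fold change, for the inflammatory caspase and for the necroptosis executor. Each is written 5′ to 3′ on the strand of the gene, and capitals mark CpG dinucleotides, which are dense in the promoters of many broadly expressed genes.
*Nlrp3*, chr11:59542436-59542685, plus strand: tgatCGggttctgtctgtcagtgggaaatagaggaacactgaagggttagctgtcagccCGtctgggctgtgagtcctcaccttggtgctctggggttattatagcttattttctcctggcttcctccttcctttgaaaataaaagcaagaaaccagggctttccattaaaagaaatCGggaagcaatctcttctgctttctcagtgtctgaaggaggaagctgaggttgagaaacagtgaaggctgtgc
*Casp1*, chr9:5298267-5298516, plus strand: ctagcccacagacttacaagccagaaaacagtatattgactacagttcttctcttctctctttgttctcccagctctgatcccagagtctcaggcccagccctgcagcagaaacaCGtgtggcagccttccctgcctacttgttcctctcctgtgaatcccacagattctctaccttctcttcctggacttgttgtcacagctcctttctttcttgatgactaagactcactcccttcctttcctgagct
*Mlkl*, chr8:111338206-111338455, minus strand: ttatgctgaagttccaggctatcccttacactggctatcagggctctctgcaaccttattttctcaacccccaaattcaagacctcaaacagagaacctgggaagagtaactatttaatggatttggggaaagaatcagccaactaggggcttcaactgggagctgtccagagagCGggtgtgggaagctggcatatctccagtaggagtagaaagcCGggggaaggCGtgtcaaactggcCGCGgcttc
*Ripk1*, chr13:34002113-34002362, plus strand: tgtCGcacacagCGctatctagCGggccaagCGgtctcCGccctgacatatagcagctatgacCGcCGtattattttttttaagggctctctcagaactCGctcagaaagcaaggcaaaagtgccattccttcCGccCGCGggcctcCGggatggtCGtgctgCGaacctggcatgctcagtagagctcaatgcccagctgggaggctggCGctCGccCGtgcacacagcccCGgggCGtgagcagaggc

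The *Ripk1* window held 19 CpG dinucleotides at a GC content of 60.8%, and its second listed window held 32. In that second window 171 of the 250 bases are annotated as exon. The *Casp1* window held 1, that of *Nlrp3* 3 (4 at its other start site) and that of *Mlkl* 5. Among the remaining genes, *Pycard* had 2, *Casp4* 3, *Aim2* 4 and *Ripk3* 8. The median over 11341 tested genes with a window was 16 (quartiles 9 and 23), and over 2062 genes called higher in HRS legs it was 11 (quartiles 4 and 19). Of the 8 genes matched, only *Ripk1* was therefore above both medians. Motifs were searched on both strands. An interferon-stimulated response element core, written as GAAA, any 2 bases and GAAA, was in none of the 11 windows and in 2.98% of 32851 promoter windows of the same length. A gamma-activated site (TTCNNNGAA) was in the second *Ripk1* window only, with 2 matches of TTCCCGGAA, at bases -108 to -100 and -11 to -3 from the start site, and in 7.02% of all windows. These matches describe letters in a window and no binding was measured. Of the 2062 genes called higher, 6.94% had the response element core and 9.41% the gamma-activated site in any of their windows.

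Pairing of the legs by mouse gave the next comparison. The HRS leg lay above the PBS leg in 5 of 5 mice for each of the 10 genes, which held for 26.3% of tested genes. The mean within-mouse difference in log2(normalized count + 0.5) was 3.51 ± 0.90 (SD, n = 5) for *Nlrp3*, 3.39 ± 0.46 for *Zbp1*, 2.78 ± 1.18 for *Ripk3* and 1.61 ± 0.75 for *Ripk1*. *Casp4* (SD 0.47) and *Zbp1* were the most even over the mice and *Ripk3* the least even. *Ripk1* had the smallest difference of the 10 genes in every one of the 5 mice. With mouse as a replicate block in limma, all 10 genes were called as well, with adjusted p from 0.000516 (*Zbp1*) to 0.00847 (*Ripk1*). The blocked fit called 2709 of 16414 tested genes higher.

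The 5 mice did not respond alike. All 10 genes were highest in the HRS leg of m864 and lowest in that of m866, and among the 2781 genes called higher the shares were 70.6% and 90.1%. In m866 the difference between the legs was 0.36 for *Ripk1*, 0.68 for *Ripk3* and 0.84 for *Mlkl*, whereas it was 2.26 for *Nlrp3* and 3.25 for *Zbp1*. In the other 4 mice *Ripk3* differed by 3.02 to 3.43 and *Mlkl* by 2.45 to 2.98. The small values of m866 came from both legs, since its PBS leg was the highest of the contralateral legs for *Ripk1*, *Ripk3* and *Mlkl*. The leukocyte gene *Ptprc* (CD45), at 58.0 in the HRS leg of m866 and 279 in that of m864, had the same extremes, and its part in these differences was not tested. Without the HRS leg of m866 all 10 genes were again called, with log2 fold changes from 1.79 (*Ripk1*) to 3.75 (*Nlrp3*). In that fit 3257 of 16414 tested genes were called higher.

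**Figure D2:**
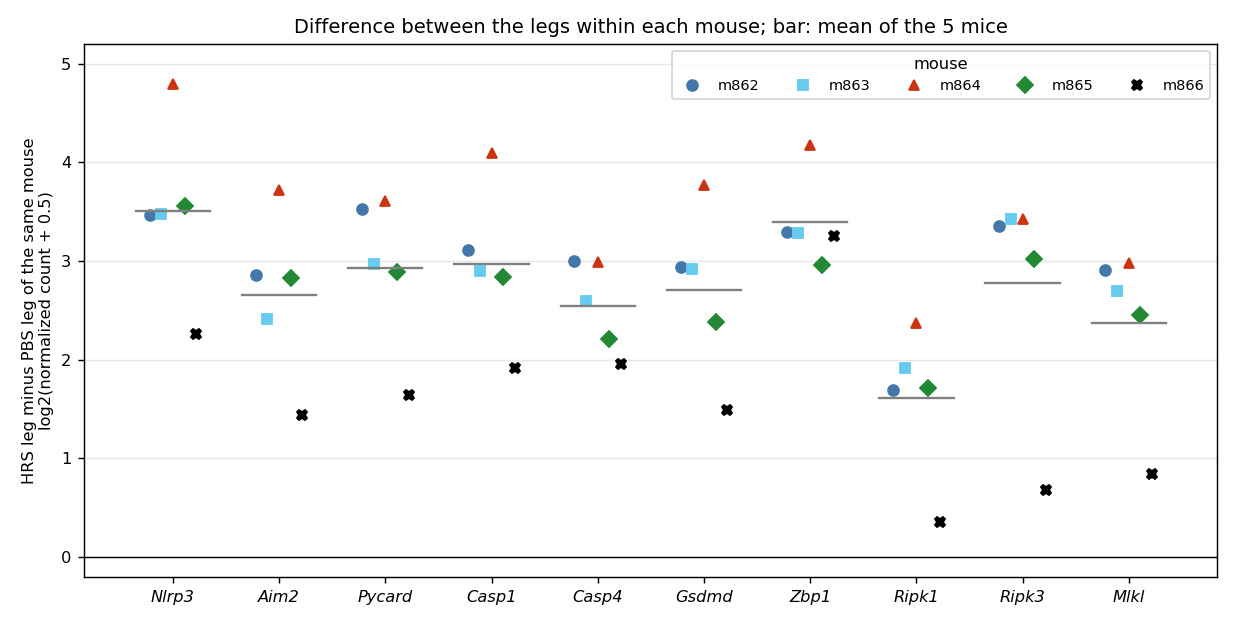
Difference in log2(normalized count + 0.5) between the HRS leg and the PBS leg of the same mouse (5 mice, symbols) for the 10 genes, with the mean of 5 mice as a bar. All points lie above 0, m864 is highest for 9 genes, and m866 is lowest for 9 genes, with *Zbp1* (3.25) as the exception.

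Mice that received no HRS served as a second control. Against PBS-only legs, all 10 genes were called higher in HRS legs, with 18.9% of tested genes called higher, and all 10 groups of values were free of overlap, with 26.6% of tested genes so separated. The log2 fold changes had a median of 2.98 (0.15 over all tested genes) and ran from 1.63 ± 0.24 in *Ripk1* to 4.01 ± 0.42 in *Zbp1*, with *Nlrp3* at 3.46 ± 0.42. The HRS libraries are those of the leg comparison, so that these values are not a second test of the HRS legs. The 4 PBS-only legs came from 2 animals, and with the legs averaged per mouse all 10 genes were called at the same log2 fold changes. With averaged legs, 2972 of 16414 tested genes were called higher.

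Whether the PBS leg of an immunized mouse differed from that of a mouse given PBS only was examined directly. No gene of the 10 was called (limma, adjusted p from 0.984 to 1), none had an unadjusted p under 0.05, and limma-voom called 0 as well. Over all tested genes, 0.00609% were called in either direction, and 902 of 16414 had an unadjusted p under 0.05. At that share, its absence among 10 genes carries little weight. The differences had a median of 0.26 (0.07 over all tested genes) and ran from -0.05 in *Nlrp3*, with a 95% interval of -0.95 to 0.85, to 0.62 in *Zbp1*, with an interval of -0.27 to 1.51. The interval of *Ripk1* was -0.48 to 0.53, that of *Mlkl* -0.37 to 0.91 and that of *Gsdmd* -0.46 to 0.82. Differences within these intervals were not resolved with 5 legs against 4, and the 4 came from 2 mice. For *Zbp1* the value moved from 0.24 without 1 leg of m867 to 0.94 without 1 leg of m868, and it was 1.15 with limma-voom (adjusted p = 1).

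The HRS-MBP libraries were compared with the same PBS-only legs. All 10 genes were called higher, as were 20.7% of tested genes, and none of the 10 overlapped between the groups, which held for 39.8% of tested genes. The median log2 fold change was 3.74 (0.11 over all tested genes), from 2.20 ± 0.30 in *Ripk1* to 5.02 ± 0.54 in *Zbp1*, with *Nlrp3* at 4.73 ± 0.55 and *Casp1* at 4.43 ± 0.47. Both libraries of the group lay within the range of the HRS legs for all 10 genes except *Casp4*, for which m861 (28.2) exceeded the highest HRS leg (26.6).

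In the direct comparison of HRS-MBP with HRS legs, all 10 genes had higher means in HRS-MBP and none was called (limma, adjusted p from 0.295 to 0.579). Of all tested genes, 0.463% were called in either direction. Unadjusted p was under 0.05 for 4 genes, against 14.4% of all tested genes, and limma-voom called 0. The median difference was 0.80 on the log2 scale (-0.03 over all tested genes), from 0.48 in *Mlkl* (95% interval -0.32 to 1.28) to 1.27 in *Nlrp3* (0.15 to 2.39). The comparison turned on 1 library. Without the HRS leg of m864, *Nlrp3* (1.66, limma adjusted p = 0.0215), *Gsdmd* (1.21, 0.0141), *Casp1* (1.40, 0.0356) and *Aim2* (1.20, 0.0411) were called higher in HRS-MBP and the other 6 were not, a contrast between genes that was not tested. In the same fit 3.25% of tested genes were called higher. The protein, its concentration and possibly the leg differed between the groups and cannot be told apart.

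**Figure D3:**
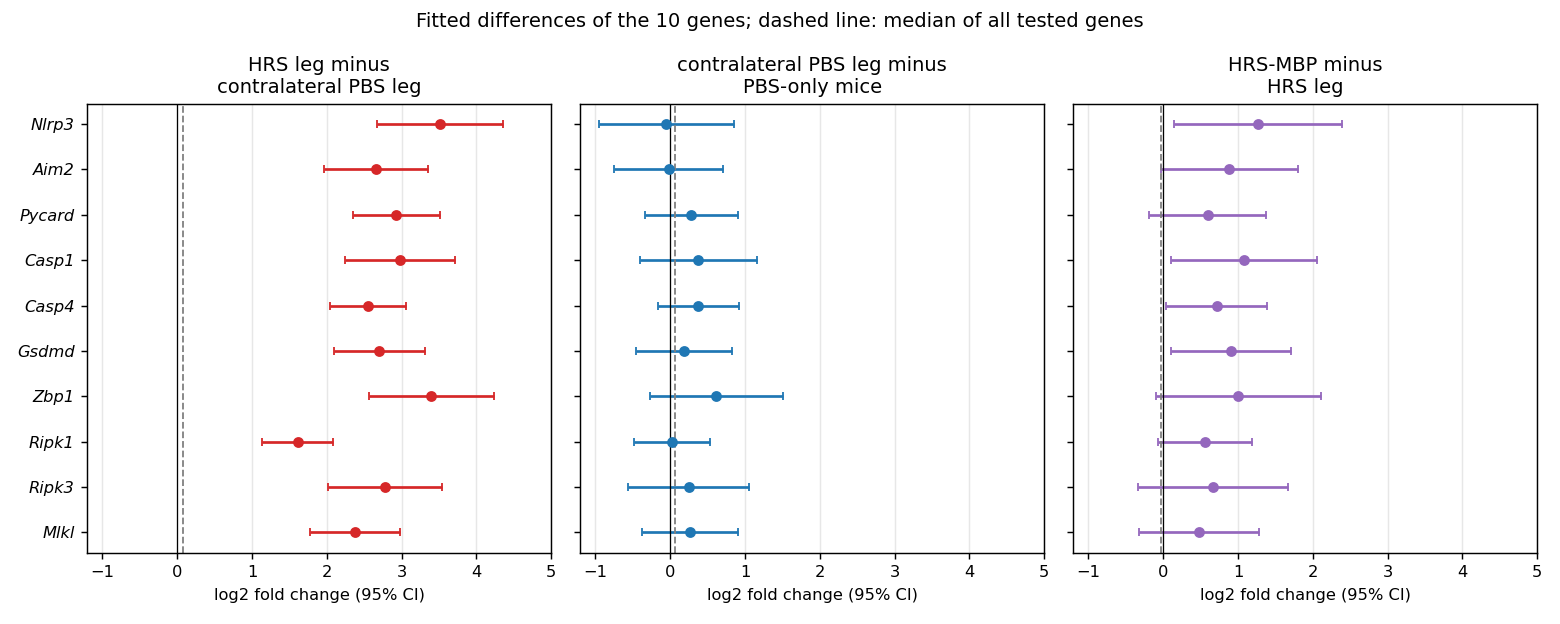
Fitted log2 fold change with its 95% confidence interval for the 10 genes in HRS legs minus contralateral PBS legs, contralateral PBS legs minus PBS-only mice, and HRS-MBP minus HRS legs, with the median of all tested genes as a dashed line. The first panel runs from 1.61 to 3.51 with all intervals above 1, all intervals of the second panel include 0, and the third runs from 0.48 to 1.27.

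Markers of infiltrating cells moved with these genes, and the counts below stand against 16.9% of all tested genes called higher and 6.27% called lower. All 10 macrophage and monocyte markers of the list used were called higher in HRS than in contralateral legs (median log2 fold change 3.48), and their summed values were 1125 to 5692 in HRS legs, 113 to 302 in contralateral legs, 105 to 225 in PBS-only legs and 4624 to 4914 in HRS-MBP libraries. Called higher were also 6 of 6 tested neutrophil markers (summed 10.4 to 125 against 1.22 to 3.51, *Ly6g* at 0 in contralateral and in PBS-only legs, and *Mpo* at 0 in the latter), 8 of 8 T cell markers (20.3 to 136 against 1.63 to 3.60), 5 of 5 NK cell markers (9.80 to 33.7 against 0.353 to 1.72), 6 of 6 B and plasma cell markers (87.1 to 379 against 2.43 to 23.0) and 5 of 6 dendritic cell markers (27.0 to 84.5 against 8.32 to 12.2). Among the tested neutrophil markers, only *Csf3r* (9.06 or above in HRS legs, 1.99 or below in contralateral legs) and *Retnlg* were without overlap. For *S100a8*, *S100a9*, *Cxcr2* and *Mpo* the ranges overlapped, so the summed gap does not hold for each marker. The lowest HRS values of *S100a8* and *S100a9* were 0.343 and 0.374, against highest contralateral values of 0.3695 and 0.508. Of the fibroblast markers 3 of 5 were called higher (1894 to 18402 against 859 to 2057). Of the endothelial markers 0 of 5 were called by limma or limma-voom, 2 had an unadjusted p under 0.05 (as did 65.4% of all tested genes), and the summed values were 318 to 371 against 298 to 364. Of the muscle fibre markers 5 of 10 were called lower (48610 to 204140 against 150420 to 245910), and 0 of 10 without the HRS leg of m864 or with the mouse as a block, 6 with limma-voom and 8 without the HRS leg of m866. With the mouse as a block, with limma-voom and without the HRS leg of m864, 5 of 6 neutrophil markers were called higher, and in the last 2 of these fits 4 of 6 B and plasma cell markers. The part of these cells in the rise of the 10 genes was not tested.

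Each gene was also expressed as a percentage of *Ptprc*, a gene of all leukocytes, in the same library. *Ptprc* itself was at 58.0 to 279 in HRS legs and 3.62 to 9.47 in contralateral legs, a log2 fold change of 3.93 ± 0.35, above that of all 10 genes. *Ripk1* equalled 79.7% to 177% of *Ptprc* in contralateral legs and 14.7% to 26.5% in HRS legs. *Gsdmd* went from 45.6% to 110% in contralateral legs to 25.005% to 32.0% in HRS legs, and *Mlkl* from 13.5% to 40.2% to 7.36% to 11.98%. The share was lower in all HRS legs than in all contralateral legs for 7 of the 10 genes, against 92.8% of tested genes and 65.7% of the 2781 genes called higher. The exceptions were *Nlrp3* (8.58% to 14.0% in HRS legs, 5.67% to 16.8% in contralateral legs), *Zbp1* (28.1% to 54.1% and 31.4% to 112%) and *Ripk3* (7.43% to 11.4% and 7.80% to 29.3%). *Nlrp3* was the only one of the 10 whose mean share was higher in HRS legs (10.8% against 9.61%). These exceptions depended on the scale and the reference. As a difference of log2(normalized count + 0.5) from *Ptprc*, *Nlrp3* had a lower mean in HRS legs (-3.17) than in contralateral legs (-2.75), as did all 10 genes, and 8 genes, *Ripk3* now included, were without overlap. Set against the mean of the macrophage markers on that scale, 4 genes were lower without overlap (*Aim2*, *Pycard*, *Gsdmd* and *Ripk1*), while *Nlrp3* (-2.98 against -3.16) and *Zbp1* (-1.26 against -1.32) had higher means in HRS legs. The denominators in contralateral legs are small, and no test was run on these shares. For the counts without overlap on the log2 scale, the share of all tested genes was not computed. Those counts therefore cannot be read as particular to the 10 genes.

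**Figure D4:**
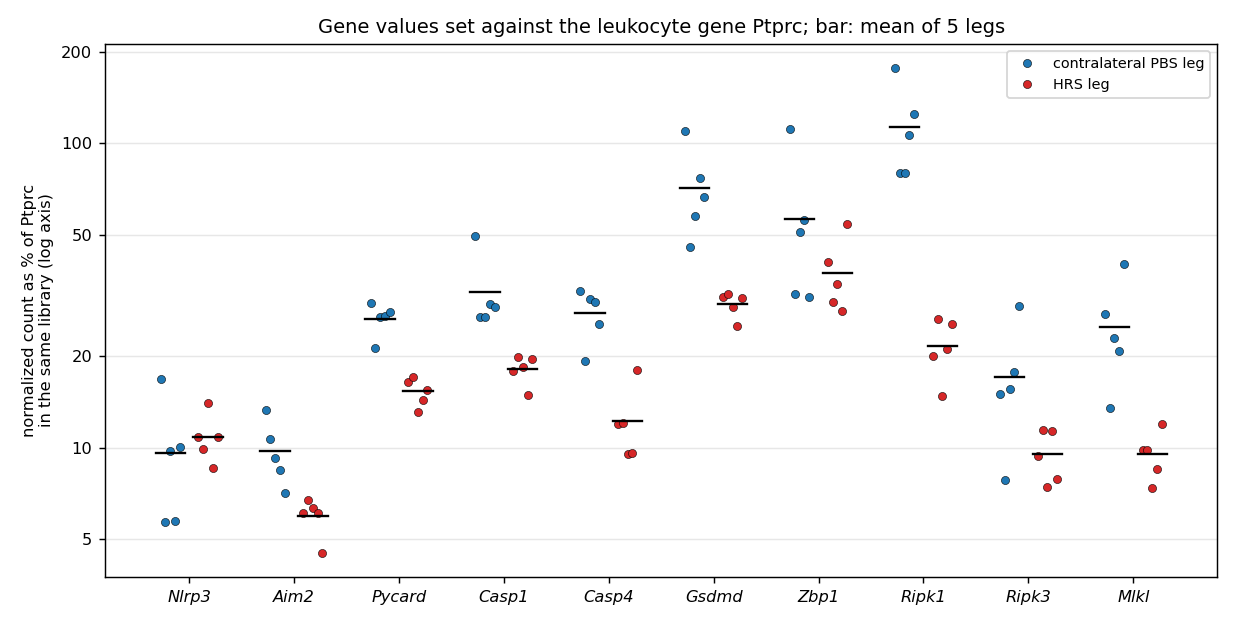
Normalized count of each gene as a percentage of *Ptprc* in the same library (log axis) for the 5 contralateral PBS legs and the 5 HRS legs, with the mean as a bar. *Ripk1* shows the widest gap, with 79.7% or more in contralateral legs and 26.5% or less in HRS legs, and the groups overlap for *Nlrp3*, *Zbp1* and *Ripk3*.

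Other genes of the same pathways were taken as 8 lists of 90 genes, of which 85 were tested. In HRS against contralateral legs, 46 were called higher and 2 lower, where 16.9% of all tested genes were called higher and 6.27% lower. Among other inflammasome sensors and adaptors, 7 of 8 tested genes were called higher (list median 2.27), led by *Mefv*, which encodes pyrin (3.68 to 30.5 in HRS legs, 0.0320 to 0.647 in contralateral legs, log2 fold change 4.03 ± 0.39). The NAIP-NLRC4 genes that sense flagellin and secretion systems belonged to them, with *Naip2* at 2.81 ± 0.36 and *Nlrc4* at 2.18 ± 0.29. *Nek7*, the kinase that binds NLRP3, was not called (-0.80 ± 0.21, limma adjusted p = 0.00483, below the fold threshold) but was called lower without the HRS leg of m866, and it was at 69.9 to 176 in HRS legs and 120 to 198 in contralateral legs.

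Below the caspases, *Ninj1*, whose protein ruptures the membrane at the end of lytic death, was at 37.9 to 168 in HRS legs and 16.2 to 20.8 in contralateral legs (2.11 ± 0.27). The list of other caspases, gasdermins and rupture genes held 7 tested genes, of which 5 were called higher, *Casp6*, *Casp8* and *Ninj1* among them (list median 1.299). *Casp8*, which restrains necroptosis and triggers apoptosis, had a log2 fold change of 1.65 ± 0.27. *Gsdme*, another pore-forming gasdermin, was called lower (-1.01 ± 0.23) at 8.73 to 29.8 against 22.7 to 33.3, and it lost that call without the HRS leg of m864. The IL-1 and IL-18 family, the cytokines released through gasdermin pores and their receptors, had 9 of 10 tested genes called higher (list median 2.21). *Il1b* was at 2.65 to 31.1 against 0.0641 to 0.508 (3.91 ± 0.44), the receptor antagonist *Il1rn* at 3.74 to 24.5 against 0.128 to 1.62 (3.97 ± 0.45), and *Il18* at 1.31 to 8.47 against 0.559 to 1.21 (1.56 ± 0.31).

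Upstream of necroptosis, 7 of 11 genes were called higher (list median 1.37). *Tnf* was at 4.55 to 19.5 in HRS legs and 0.0588 to 0.600 in contralateral legs (3.46 ± 0.32), its receptor *Tnfrsf1a* differed by 1.41 ± 0.22 and the double-stranded RNA receptor *Tlr3* by 1.38 ± 0.20. The adaptor *Fadd* was not called (0.61 ± 0.15). Among 16 genes that hold RIPK1-dependent death in check, 3 were called higher (list median 0.40), a share near the 16.9% of all tested genes. They were the ubiquitin-editing enzyme *Tnfaip3* (1.96 ± 0.21), *Adar*, the RNA editor that limits ZBP1 activation (1.82 ± 0.19), and the ubiquitin ligase *Birc3* (1.80 ± 0.22). The 13 others lay between -0.69 and 0.91. The ESCRT-III genes, which repair pores in the membrane, had 0 of 9 called by limma and by limma-voom, with 6 of 9 at an unadjusted p under 0.05 against 65.4% of all tested genes, and log2 fold changes between -0.58 and 0.72 (list median 0.00).

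In the mitochondrial route of apoptosis, 6 of 14 genes were called higher and *Endog* lower (list median 0.99). *Pmaip1*, a BH3-only activator, differed by 3.33 ± 0.34 and *Apaf1*, the scaffold of the apoptosome, by 2.18 ± 0.22. Without the HRS leg of m864 the counts were 4 and 0, without that of m866 they were 8 and 2, and with the mouse as a block 5 and 1. Of interferon regulators and guanylate-binding proteins, which promote inflammasome activation, 9 of 10 were called higher (list median 2.51), with *Irf8* at 3.32 ± 0.25 and *Irf1* at 2.91 ± 0.36, and *Irf2* was not (0.44 ± 0.17). In contralateral PBS legs against PBS-only mice, and in HRS-MBP against HRS legs, limma called none of the 85 genes of the 8 lists. Of all tested genes it called 0.00609% and 0.463%. In HRS-MBP against HRS legs, unadjusted limma p was under 0.05 for 14.4% of all tested genes. In the lists this ran from 1 of 7 other caspases and gasdermins and 2 of 14 apoptosis genes to 4 of 8 inflammasome genes. How these list counts depend on the HRS leg of m864 is not reported here.

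**Figure D5:**
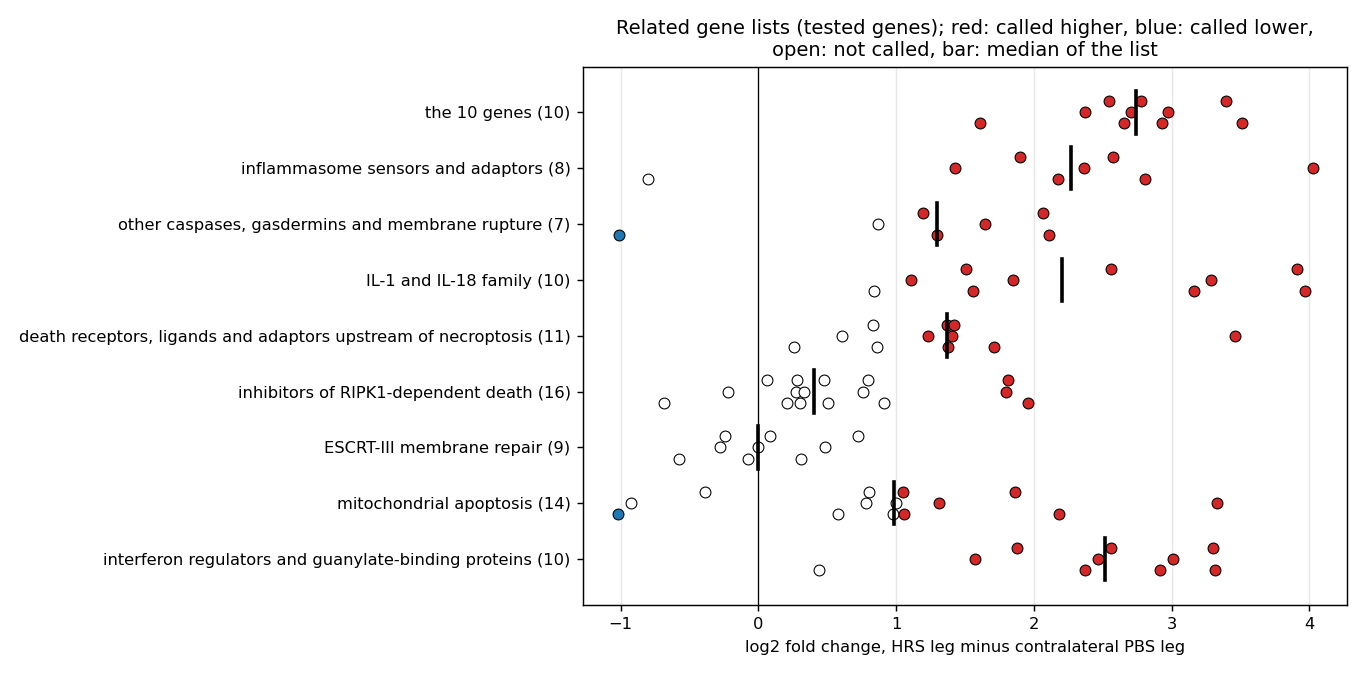
Log2 fold change of HRS minus contralateral PBS legs for the 10 genes and for the tested genes of 8 related lists (number in brackets), with filled points for called genes (red higher, blue lower), open points for genes not called and a bar at the median. The medians are 2.74 for the 10 genes, 2.51 for interferon regulators, 2.27 for other inflammasome genes, 0.40 for inhibitors of RIPK1-dependent death and 0.00 for ESCRT-III.

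For each gene, the 2 tested genes with the most similar profile were found, as the smallest root mean square difference of centred log2 values over the 16 libraries. These libraries fall into groups that differ widely, so a small distance is a description of shared group differences. *Ripk1* had the closest neighbours, *Mob1a* (0.104), a Hippo pathway gene, and *Zyx* (0.124), a focal adhesion gene. *Gsdmd* was nearest to *Arhgap4* (0.133) and *Rinl* (0.188), *Aim2* to *Sdc3* (0.172) and *Gsap* (0.186), *Casp4* to *Mcub* (0.196) and *Shtn1* (0.223), and *Pycard* to *Was* (0.208), a regulator of actin in blood cells, and *Efhd2* (0.209). *Casp1* was nearest to *H2-DMb1* (0.213), which loads peptides on MHC class II, and *Pld4* (0.225), and *Nlrp3* to *Ciita* (0.243), the transactivator of MHC class II genes, and *Traf1* (0.248). *Mlkl* was nearest to *Arpc1b* (0.212) and *Lpin2* (0.232), *Ripk3* to *Abracl* (0.288) and *Inpp5d* (0.312), and *Zbp1*, whose closest gene was farther off than that of the other 9, to *Slfn1* (0.299) and *Plac8* (0.335). No gene had another of the 10 among its closest pair. The closest pair among the 10 was *Gsdmd* and *Aim2* (0.227), followed by *Casp4* and *Gsdmd* (0.232), and *Ripk1* was the farthest from the rest, at 0.495 from *Mlkl*.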

How the data were processed

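Bulk RNA of 16 hamstring libraries from 9 mice was analysed. The authors deposited normalized counts per gene, a signal that is never negative, together with gene coordinates and lengths. How they were normalized is not given in the sources used here, and the submitters' processing notes name STAR 2.7.8a, limma and the builds mm39 and GRCm39. Positions in the table nevertheless equalled those of GENCODE M21 (GRCm38) for 25391 of 26382 genes, and coordinates are printed as in the table. Library totals were 726797 to 1252358. The worth of 1 read was taken as the step between low values, of which 75.4% to 77.7% were whole multiples within 0.02 steps. Because the rest were not, reads were not recovered, no count model was run, and depths (8600000 to 73900000 reads) are approximate. No column of sample values was unused.

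Tests used limma 3.58.1 in R 4.3.3 (lmFit, and eBayes with trend) in 1 fit of 4 groups, on the log2 of the value plus 0.5. A mean of 0.5 or more was required, which left 16414 genes. Genes were called at a Benjamini-Hochberg adjusted p under 0.05 and an absolute log2 fold change above 1. Where a group's legs share a mouse, p-values measure the spread between legs. Same mouse numbers mean the same animal by the labels, so the numbers pair the legs, and deviations of paired legs from their group means correlated at 0.119, 0.163, 0.0972, -0.0256 and -0.366 in m862 to m866. The fit behind the printed values has no block, and the blocked values stand beside the leg comparison. Comparisons share libraries, so they are not independent of each other. Alternatives covered pseudocount, filter, scaling, limma-voom, blocking, averaged legs, the groups in the fit and each library left out.

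The named genes are the 10 genes, *Ptprc*, genes of the 8 pathway lists and 2 nearest genes for each of the 10, and cell types were read from marker lists. The genes, lists and tests were chosen with earlier results of these data known. Promoter windows are RefSeq sequences of GRCm38.p6. The limma step was checked on simulated data. Some genes of the lists are not reported here by name.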

Additional observations from a re-analysis of the deposited data

Results flagged for a closer look

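Among the 10 genes, the groups of 5 HRS legs, 5 contralateral PBS legs and 4 PBS-only legs gave 30 sets of values that were examined for a library far from the others of its group, on the scale of log2(normalized count + 0.5). In 2 of them the extreme library was separated from the nearest by more than Dixon's 95% critical value, and chance gives about 1 in 20. *Casp4* was at 26.6 in the HRS leg of m864, with a gap to the next leg of 0.741 of the range of the group on that scale. *Ripk1* was at 11.4 in the contralateral PBS leg of m866, with a gap of 0.714 of the range on that scale. On the normalized counts themselves 7 sets passed, those of *Casp1*, *Casp4*, *Gsdmd*, *Mlkl*, *Nlrp3* and *Zbp1* through the HRS leg of m864 and that of *Ripk1* through the contralateral leg of m866. *Casp4* and *Ripk1* were called higher in HRS legs without these libraries.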

How the results depend on the processing

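HRS legs against contralateral legs were recomputed under 20 alternatives, HRS legs against PBS-only mice under 19 and HRS-MBP against PBS-only mice under 16, and in all of them all 10 genes kept their direction and were called. With the mouse as a replicate block, as a fixed or a random term (correlation -0.154), 10 genes were called as in the fit without it, and no call among them changed. The size of *Nlrp3* in the leg comparison was 2.48 with a pseudocount of 2, 4.05 with the smaller one and 4.37 with limma-voom. The count for HRS-MBP against HRS legs ran from 0 to 4 when 1 library was left out, and the 4 came without the HRS leg of m864. For contralateral legs against PBS-only mice 0 genes were called in every alternative, and signs turned only for genes near 0. *Nlrp3* was 0.0256 with a smaller pseudocount and 0.402 with limma-voom, and -0.304 to 0.245 with 1 library left out. *Aim2* was -0.103 to 0.0936 with 1 library left out. *Ripk1* was -0.0474 after quantile normalization, -0.03 with median-of-ratios factors, -0.00396 with limma-voom, and -0.104 to 0.128 with 1 library left out. The cause of these turns was not tested. Low read numbers limit the PBS legs, where *Aim2* and *Ripk3* in m868 and *Nlrp3* in m867 rest on as few as 5 reads. The part of depth in these low numbers was not tested.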
